A study of Mus musculus with 8 samples.

Results

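The translatome of PV+ interneurons at baseline was taken from the 4 samples of vehicle-treated mice, which are 4 of the 8 samples of the series. All 45706 genes of the deposited tables were described by level, rank and spread between these replicates, and CNO-treated mice do not enter any value. Parvalbumin (PV) marks the fast-spiking basket and chandelier cells of the cortex. Each sample pooled the primary somatosensory cortex (S1) of 4 brains from *PvalbFlp/+;Neurod6Cre/+* mice of both sexes, aged postnatal day 42 to 70 according to the labels. All mice, those of the other group included, were injected as pups, on postnatal day 1 according to the labels. The paper gives a window of days that starts there. The virus injected was an adeno-associated virus of serotype AAV8. The neuronal promoter hSyn drives its cargo, which is set in a flx-fDIO cassette, Flp recombinase from the *Pvalb* gene turns the cargo on, and Cre from the pyramidal cell gene *Neurod6* turns it off. The cargo is the ribosomal protein RPL10A with a haemagglutinin (HA) tag, HA-Rpl10a, together with the Myc-tagged receptor hM3D(Gq), which stays unoccupied without its ligand. Vehicle was injected 5 times over about 48 h, and its composition is not given in the sources used here. Every sample is a separate pool of animals, so that the spread between samples contains the variation between pools and that of pulldown and library preparation.

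In translating ribosome affinity purification, ribosomes are pulled down through the tag and the mRNAs bound to them are sequenced. A high level therefore stands for an mRNA that is abundant on the captured ribosomes, which includes RNA that sticks to the beads from other cells. A library of the unfractionated cortex was not analysed here, so that a level cannot be read as enrichment in PV+ interneurons. In bulk samples of this kind, fewer cells of a type and less RNA per cell cannot be told apart. PV+ interneurons release GABA onto the soma and axon initial segment of pyramidal cells, fire at high rates with brief action potentials shaped by Kv3 channels, and are known for many mitochondria and for perineuronal nets.

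The reads counted on genes numbered 44064161 to 49237219 per sample. Levels are given in TPM, the reads of a gene per unit of transcript length, brought to the same sum in every sample, so that levels of different genes can be compared. The smallest amount this depth can show, taken as 3 reads, was 0.0609 to 0.0681 CPM (counts relative to the library total), a limit that covers counting error only. Values of the 4 replicates are listed in the order 1 to 4, which has no meaning beyond the label.

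The markers of the cell type were checked first. *Pvalb* (ENSMUSG00000005716, chromosome 15 of GRCm38 from 78191114 to 78206400) encodes the calcium buffer parvalbumin and had 300.1, 988, 1050.0 and 943 TPM, a mean of 820.2 ± 349 TPM (SD, n = 4). *Gad1* (ENSMUSG00000070880, chromosome 2 of GRCm38 from 70553072 to 70602014), the main enzyme of GABA synthesis, had 509, 1126, 1239.7 and 1215 TPM. *Kcnc1* (ENSMUSG00000058975, chromosome 7 of GRCm38 from 46396497 to 46438704), which encodes the channel Kv3.1, had 174, 362, 368 and 326 TPM. In each of these genes replicates 2 to 4 lay close together and replicate 1 was far below them. *Slc32a1* (ENSMUSG00000037771, chromosome 2 of GRCm38 from 158610767 to 158615748), the vesicular transporter of GABA, had 4.82, 22.8, 27.7 and 26.2 TPM, and 24.2% of its 31-nucleotide stretches also occur in transcripts of other genes. *Slc17a7* (ENSMUSG00000070570, chromosome 7 of GRCm38 from 45163949 to 45176142), the vesicular glutamate transporter of pyramidal cells, had 547, 441, 436 and 469.6 TPM. The pyramidal cell marker was thus present in all 4 samples and was highest in replicate 1. By mean level *Gad1* ranked 55, *Pvalb* 85, *Slc17a7* 205, *Kcnc1* 409 and *Slc32a1* 7318 among 45706 genes.

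By level, *Pvalb* and *Gad1* were thus above *Slc17a7* in replicates 2 to 4 and below it in replicate 1. *Kcnc1* was below *Slc17a7* in all 4 samples. Levels of different genes do not measure how pure a sample is. *Pvalb* was 0.549 to 2.41 times the level of *Slc17a7*, with the lowest ratio in replicate 1 and no ratio under 2.01 in the other replicates. *Gad1* was above *Slc17a7* in 3 of 4 samples, with a ratio of 0.931 in replicate 1 and 2.55 to 2.85 in the others. A marker index was formed by subtracting the mean log2(TPM + 1) of 15 genes of pyramidal cells from that of 12 genes of PV+ interneurons. It was -0.01, 1.22, 1.63 and 1.52 in the 4 replicates. Its mean was 1.09 ± 0.75 (SD, n = 4), and 1.46 without replicate 1. Of the 9766 genes with a mean above 10 TPM, replicate 1 was below each of the other 3 samples in 38.9% and above each of them in 39.1%, against which counts of members lowest or highest in it are to be read. Since replicate 1 stands apart in so many genes, values are given per sample, and means without it are given where they differ by much.

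**Figure D1:**
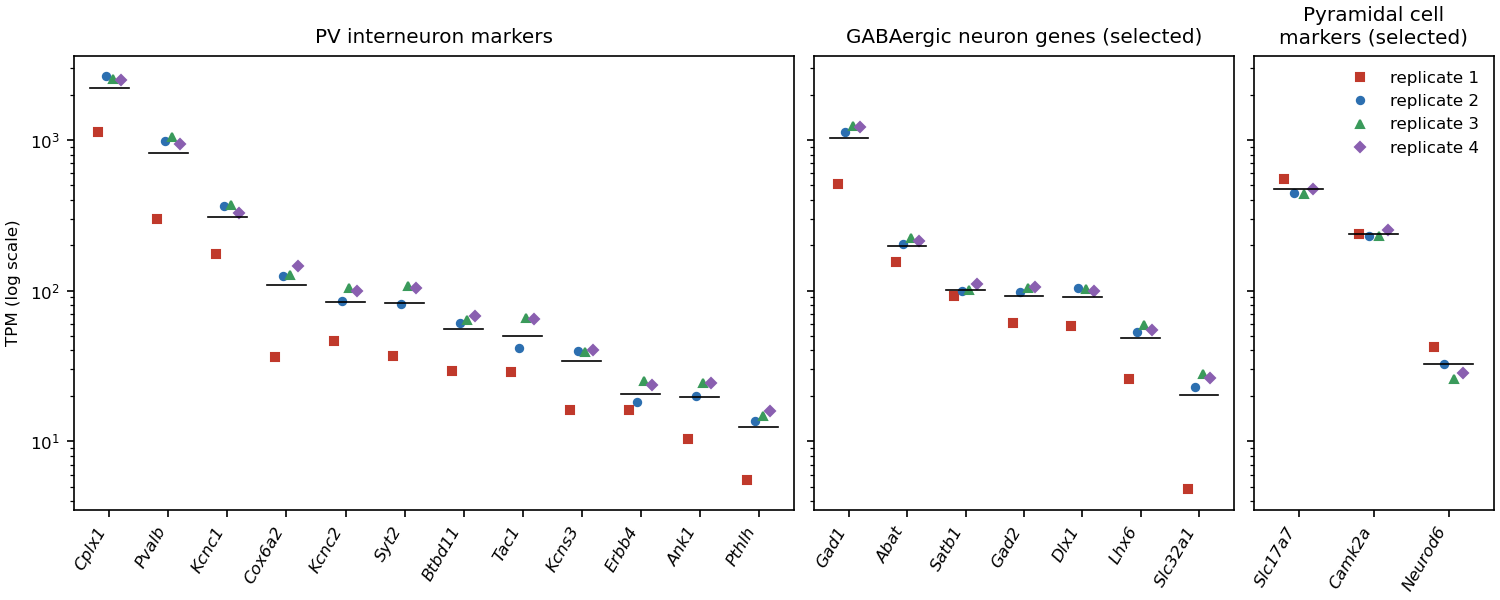
TPM (log scale) of the 12 PV+ interneuron markers and of selected GABAergic neuron genes and pyramidal cell markers in the 4 vehicle samples, one symbol per replicate and a line at the mean. All 12 PV+ interneuron markers were lowest in replicate 1, whereas *Slc17a7* and *Neurod6* were highest there.

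The starts of these genes differ in sequence, as the windows of *Pvalb*, *Gad1* and *Slc17a7* show, chosen as the gene that marks the cells, the leading gene of their transmitter and the leading gene of the pyramidal cells. Each window runs 5′ to 3′ from 250 bases before to 50 after a transcription start of RefSeq on GRCm38.p6, and capitals mark a match on either strand to 1 of 4 motifs. These are the TATA box TATAAA, the CAAT box with the letters CCAAT, the Sp1 box with its core GGGCGG and the full cyclic AMP response element TGACGTCA.
*Pvalb*, chr15:78206351-78206650, minus strand: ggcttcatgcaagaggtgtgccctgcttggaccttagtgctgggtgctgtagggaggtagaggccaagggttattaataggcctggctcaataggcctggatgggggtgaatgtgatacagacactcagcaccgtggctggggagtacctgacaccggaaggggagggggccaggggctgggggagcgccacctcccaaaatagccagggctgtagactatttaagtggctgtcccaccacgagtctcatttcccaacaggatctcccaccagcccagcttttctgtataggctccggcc
*Gad1*, chr2:70561879-70562178, plus strand: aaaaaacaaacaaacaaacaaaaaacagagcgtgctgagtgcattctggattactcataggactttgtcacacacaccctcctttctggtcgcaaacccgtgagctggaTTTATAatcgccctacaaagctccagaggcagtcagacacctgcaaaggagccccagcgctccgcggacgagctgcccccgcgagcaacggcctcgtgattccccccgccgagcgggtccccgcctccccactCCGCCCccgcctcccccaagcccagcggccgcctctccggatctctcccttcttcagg
*Slc17a7*, chr7:45163671-45163970, plus strand: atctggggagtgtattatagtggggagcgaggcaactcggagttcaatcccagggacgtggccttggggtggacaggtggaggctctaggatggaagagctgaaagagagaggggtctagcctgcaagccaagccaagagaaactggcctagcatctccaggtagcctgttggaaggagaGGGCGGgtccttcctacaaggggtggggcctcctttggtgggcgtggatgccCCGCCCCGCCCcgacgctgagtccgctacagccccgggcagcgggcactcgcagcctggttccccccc
The *Pvalb* window held none of the 4 motifs, as did the window of its other start in the table. The *Gad1* window held 1 TATAAA and 1 GGGCGG, both on the opposite strand. The *Slc17a7* window held 3 copies of GGGCGG, of which 2 overlap by 1 base. Among 1459 genes with a mean TPM above 100 (1 start per gene), 66.6% of the windows held GGGCGG, 39.3% CCAAT, 7.06% TATAAA and 5.14% TGACGTCA. Among 7357 genes above 10 TPM the share with GGGCGG was 66.8%, and among all 18418 measured genes with 1 start each it was 45.0%. Among 3832 genes at 0 in all 4 samples GGGCGG was found in 7.23%, CCAAT in 40.1%, TATAAA in 27.5% and TGACGTCA in 0.678% of the windows, and over all 32851 windows of the table the shares in the same order were 35.7%, 37.4%, 13.6% and 1.79%. The share with GGGCGG thus differed little between genes above 10 and above 100 TPM, and *Pvalb* was not among its carriers. A match of letters is a description and no binding site.

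A mean TPM above 1 was reached by 15660 genes and a mean above 10 by 9766, and 19435 genes had no read in any of the 4 samples. The 61 genes above 1000 TPM took 27.0% of all TPM, the 1850 genes between 100 and 1000 took 41.7%, and the 7855 genes between 10 and 100 took 28.8%. The 100 highest genes held 30.3% of TPM and the 631 highest genes 50% of it. Protein-coding genes held 92.8% of TPM in replicate 1 and 94.3 to 95.1% in the others, and genes of the mitochondrial genome held 0.201 to 0.240%. The mitochondrial mRNAs, which are translated on ribosomes of their own, thus took a small part of these libraries.

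The top of the ranking was held by genes that are not known for PV+ interneurons. *Trp53bp1* (ENSMUSG00000043909, chromosome 2 of GRCm38 from 121193281 to 121271407), which encodes a DNA repair protein, had 109835, 60882, 88699 and 83350.3 TPM. *Bcar1* (ENSMUSG00000031955, chromosome 8 of GRCm38 from 111710474 to 111743809), which encodes the adhesion scaffold p130Cas, had 97649, 56562, 56424 and 53339.5 TPM. Both together held 28.3% of the counts in replicate 1 and 17.6 to 21.0% in the others. They were followed by the nuclear noncoding RNA *Malat1*, with 31489.8, 19069, 16493 and 16059.9 TPM, and by *Gm37376*, with 10079, 6251, 5083 and 5246 TPM. *Gm37376* lies within *Malat1* on the opposite strand and all of its 31-nucleotide stretches also occur elsewhere, and since the library kit does not mark strand its reads cannot be told apart from those of *Malat1*. The fifth gene was *Efs*, a scaffold of the same family as *Bcar1*, with 5182, 3403, 3911 and 3547 TPM. *Efs* shares 0% and *Bcar1* 2.02% of such stretches with other genes, *Trp53bp1* 14.4%. *Tubgcp4*, whose gene overlaps *Trp53bp1* on the opposite strand, had 528, 250.6, 249.95 and 295 TPM, and reads of either gene in the overlap cannot be told apart.

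The proteins of 3 of these genes carry short stretches of the HA tag, though not the same stretch in all 3. These were looked for after their levels were seen. The HA tag of the pulldown has 9 residues, and its stretch of tyrosine, aspartate, valine and proline in a row occurred in the translated coding sequence of 41 of 21500 protein-coding genes measured. It was present in more than 1 copy in 3 genes, in *Bcar1* with 7 copies, *Efs* with 3 and *Nedd9* with 3, which all belong to the Cas family of adhesion scaffolds. *Nedd9* had 632, 411, 522 and 481 TPM and ranked 185, whereas the fourth family member, *Cass4*, had a mean of 0.440 TPM. The stretch that starts 1 residue earlier, with proline first and valine last, occurred in 47 genes, of which *Trp53bp1* was the highest and *Efs* the next, with 1 copy each. Both stretches joined, 5 residues long, occurred in 3 genes, *Efs* and, far lower, *Psme4* with 11.7 TPM and *Nup160* with 11.4 TPM. All 6 stretches of 4 residues and all 5 stretches of 5 residues of the tag were searched. The other 4 stretches of 4 residues occurred in 15, 70, 81 and 49 genes, with medians of 2.12, 18.5, 6.08 and 7.90 TPM and with *Cpe*, *Bcar1*, *Ncor1* and *Tanc2* as their highest genes, and the other 4 stretches of 5 residues in 0 to 5 genes, none of them above 100 TPM. The median level was 19.2 TPM over the 41 genes, 14.6 TPM over the 47 genes and 5.19 TPM over all 21500. Of the 47 genes 8 were above 100 TPM and of the 41 genes 4, against 1872 of the 21500. Of the 4 highest protein-coding genes, *Trp53bp1*, *Bcar1* and *Efs* carried 1 or both of the stretches found in 41 and 47 of 21500 genes. *Snap25* carried neither of them. The choice of these stretches followed the levels, so this count is a description only. The share of all genes that carry any of the 6 stretches of 4 residues was not counted. The part of the pulldown antibody in these levels was not tested.

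**Figure D2:**
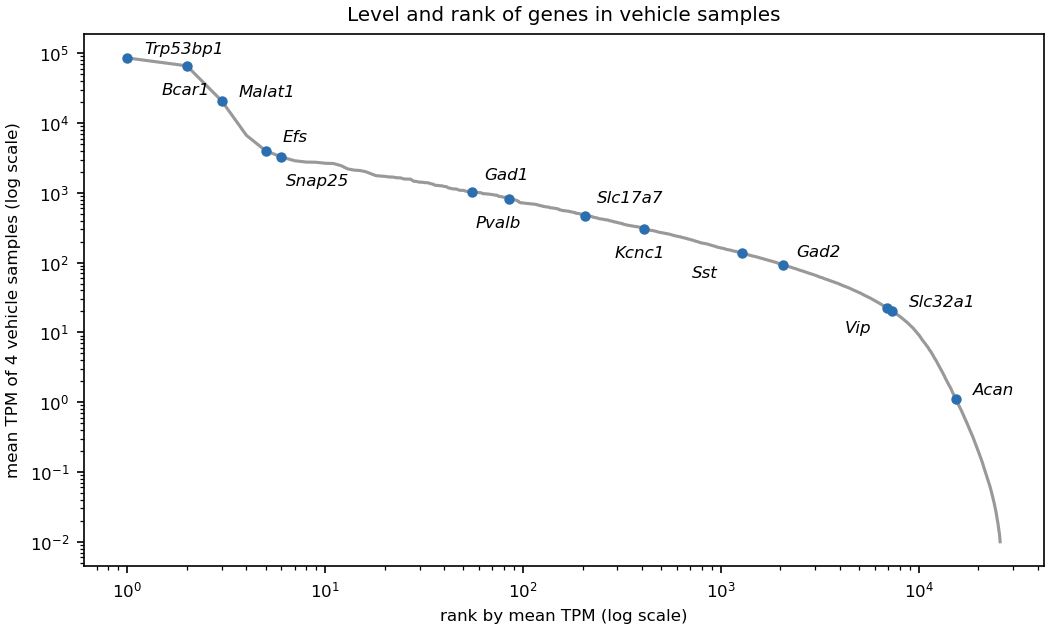
Mean TPM of the 4 vehicle samples (log scale) against rank (log scale) for genes above 0.01 TPM, with named genes as points. *Trp53bp1* and *Bcar1* lay far above the rest of the curve, and *Pvalb* ranked 85 and *Slc32a1* 7318.

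Below these genes came transcripts of synapse, metabolism and calcium signalling. *Snap25*, a core protein of vesicle fusion, had 2321, 3647, 3494 and 3627 TPM. The glycolytic enzyme gene *Gapdh* had 1999, 3129, 3272 and 3140.0 TPM. *Ckb*, which buffers ATP through creatine phosphate, had 1648, 3294, 3186 and 2919.9 TPM. All 3 were between 2920 and 3647 TPM in replicates 2 to 4 and lowest in replicate 1. Genes with means between 1722 TPM and 2741 TPM included *Ndrg4*, *Ppia*, the calmodulin gene *Calm2*, the actin-binding *Tmsb4x*, *Cplx1*, the ATP synthase gene *Atp5b*, the prohormone processing enzyme *Cpe*, *Mdh1* of the malate shuttle, the chaperone *Hspa8* and the glycolytic *Aldoa*. Among the 20 highest genes outside the mitochondrial genome, replicate 1 was highest in 7, among them *Trp53bp1*, *Bcar1*, *Malat1*, *Gm37376*, *Efs* and *Cpe*, and lowest in the other 13.

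Each of the 12 PV+ interneuron markers was detected, and all 12 had a mean above 10 TPM. *Cplx1*, a complexin that clamps and drives vesicle fusion, led them with 1121, 2643, 2559 and 2482 TPM and ranked 13 of all genes. *Cox6a2*, a cytochrome oxidase subunit otherwise found in muscle, had 36.4, 125.5, 126 and 145 TPM. *Syt2*, the fast calcium sensor of PV+ terminals, had 36.5, 81.9, 107 and 105 TPM. These genes again had 3 similar values and a low one in replicate 1. *Kcnc2* had 83.8 TPM on average, *Btbd11*, a protein of inhibitory neuron synapses, 55.3 TPM, *Tac1*, the substance P precursor, 50.2 TPM, and *Kcns3*, a silent potassium channel subunit, 33.8 TPM. *Erbb4*, the neuregulin receptor, had 16.04, 18.1, 24.96 and 23.5 TPM, and with a log2 ratio of -0.44 replicate 1 deviated least in this gene. *Ank1* had 10.4 to 24.3 TPM and *Pthlh*, a hormone-related peptide, 5.54 to 15.9 TPM. The summed level of the 12 markers was 1819.8, 4478, 4546 and 4336 TPM, and their median was 68.8 TPM, at percentile 93.5 of all genes.

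Of 10 genes for the synthesis, loading and uptake of GABA, 9 had a mean above 1 TPM. *Gad1* held 61.9 ± 4.64% (SD, n = 4) of their summed level. Its partner *Gad2*, which makes the GABA of terminals, had 61.3, 98.0, 104 and 106 TPM, so that *Gad1* was 8.31 to 11.9 times higher in the 4 samples. The ranges of both genes did not overlap. *Abat*, which degrades GABA, had 154, 203, 223 and 215 TPM and did not overlap with *Gad2*, being 2.03 to 2.51 times higher. *Slc38a1*, a glutamine transporter of interneurons, had 28.4 to 53.3 TPM and *Aldh5a1* 10.9 to 25.4 TPM. The glial transporters *Slc6a11* (GAT-3) and *Slc6a13* (GAT-2) had 7.07 to 8.04 TPM and 5.93 to 9.78 TPM, and *Slc6a12* had 0.201 to 0.723 TPM. The level of *Slc32a1* was 20.4 TPM on average, a position in the ranking far below the enzyme that supplies its cargo, with *Gad1* 44.7 to 106 times higher.

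Among the Kv3 genes, whose channels shape brief action potentials, 3 of 4 were lowest in replicate 1. *Kcnc1* held 58.1 ± 1.47% (SD, n = 4) of the Kv3 total and was 3.27 to 4.23 times *Kcnc2* (Kv3.2), and the ratio of replicate 1 lay within the range of the others although both genes were lowest in it. *Kcnc2* had 46.1, 85.4, 104 and 99.7 TPM. *Kcnc4* (Kv3.4) was the exception, with 18.5, 15.4, 15.6 and 16.8 TPM and its highest value in replicate 1. Of 9 genes for Kv1 channels, the auxiliary subunits *Kcnab2*, *Kcnab3* and *Kcnab1* led with means of 261 TPM, 231 TPM and 207 TPM. The pore subunits *Kcna2* and *Kcna1*, which set the threshold of fast-spiking cells, had 70.1 to 95.0 TPM and 58.2 to 82.4 TPM and did not differ beyond their spread. Among 27 other potassium channel genes *Kcnj9* (GIRK3) led with 160.3 to 180.5 TPM, followed by the leak channel gene *Kcnk1* with 75.8 to 126 TPM.

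Of 10 sodium channel genes, 9 had a mean above 1 TPM. Among the pores, *Scn1a* (Nav1.1), the channel of interneuron axons, had 68.2, 81.5, 77.7 and 81.5 TPM and *Scn2a1* (Nav1.2), known from pyramidal cells, 74.8, 49.9, 51.7 and 56.9 TPM. *Scn1a* was the higher of the pair in replicates 2 to 4 and the lower in replicate 1. *Scn8a* (Nav1.6) had 46.5 to 63.5 TPM. Of the pacemaker channels, *Hcn2* led with 55.9 to 89.2 TPM. *Cacna1a*, the P/Q-type channel that triggers release at PV+ terminals, led the calcium channels with 66.9, 56.2, 55.4 and 56.7 TPM. The N-type channel *Cacna1b*, which triggers release in other interneurons, had 5.57 to 6.56 TPM, without overlap with *Cacna1a*.

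**Figure D3:**
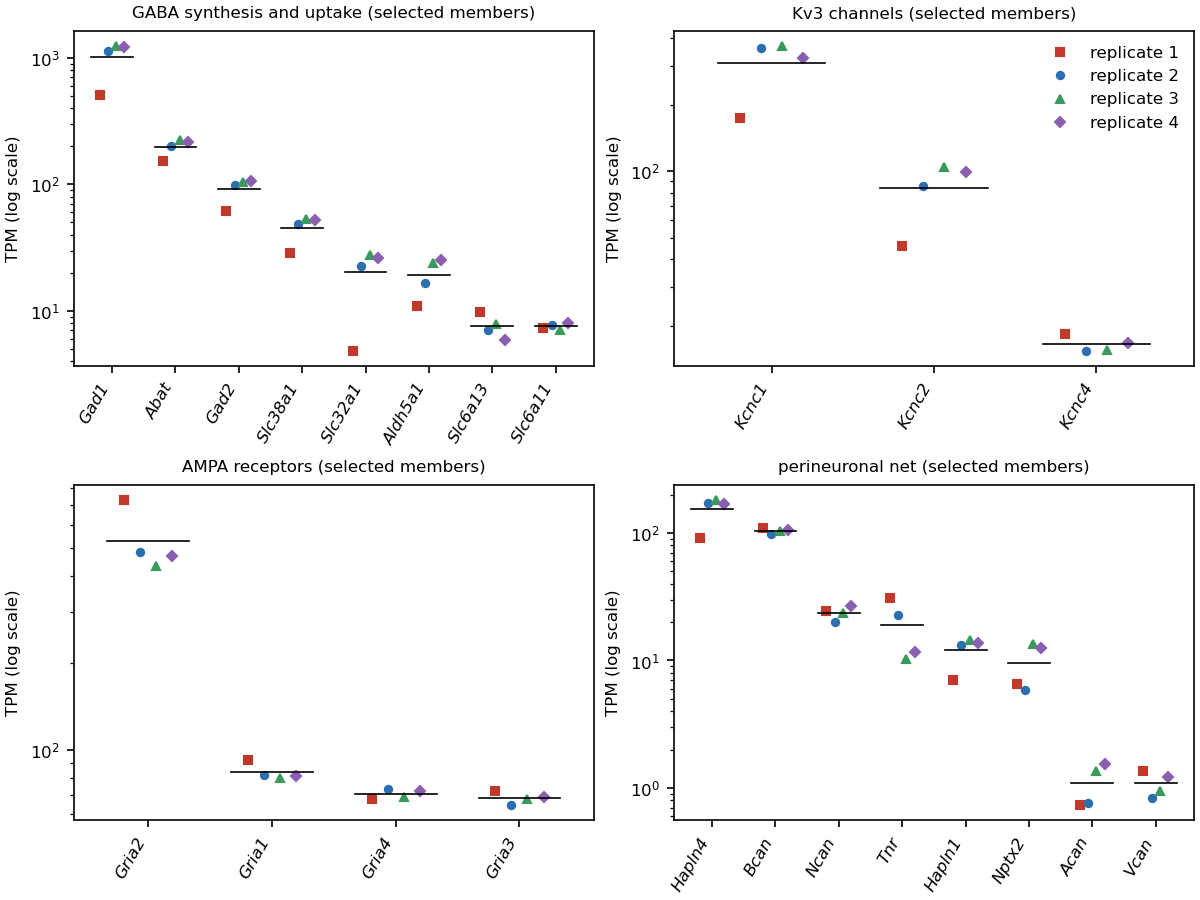
TPM (log scale) of selected members of 4 gene families in the 4 vehicle samples, ordered by mean level, one symbol per replicate and a line at the mean. *Gad1*, *Kcnc1*, *Gria2* and *Hapln4* led their families, and *Gria2* and *Kcnc4* were highest in replicate 1.

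Calcium handling was led by calmodulin, with *Calm2* at 2191 to 2930.0 TPM and *Calm3* at 218 to 394 TPM. *Pvalb* was 4.90 to 22.2 times the level of the related buffer *Calb1*, which had 47.3 to 66.8 TPM, and 64.3 to 268 times that of *Calb2* (calretinin), with 3.68 to 4.82 TPM. *Calb2* marks an interneuron class that does not express PV. Of the plasma membrane calcium pumps *Atp2b2* led with 302, 278, 302 and 329.7 TPM, 2.48 to 3.08 times *Atp2b1*. Unlike *Pvalb*, *Atp2b2* had about the same level in replicate 1 as in the others.

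All 24 genes of the release machinery had a mean above 1 TPM, and 13 were above 100. Complexin 1 was 24.1 to 57.2 times complexin 2, the form known from pyramidal cells. *Vamp1*, a synaptobrevin of fast-spiking terminals, had 352, 825, 825 and 764 TPM, and *Vamp2*, the general form, 759, 956, 876 and 929 TPM. *Vamp2* was the higher in all 4 samples but the ranges overlapped, and the ratio was 2.15 in replicate 1 and 1.06 to 1.22 in the others. *Syt1* was 3.37 to 10.0 times *Syt2*, with the highest ratio in replicate 1, and *Syt1* itself varied little with 366, 355, 359 and 403 TPM. The vesicle proteins *Rab3a* and *Syp* had means of 1469 TPM and 629 TPM.

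Of 19 GABA-A receptor genes, 12 had a mean above 1 TPM. *Gabra4*, which joins extrasynaptic receptors with *Gabrd*, had 209, 181, 134 and 145 TPM. It was highest in replicate 1, with replicates 1 and 2 above 3 and 4. *Gabrd* had 94.7 to 122 TPM and *Gabrb2* 85.6 to 96.9 TPM. *Gabrp* had no read in any sample, and *Gabra6*, a cerebellar subunit, had 0 to 0.316 TPM. The GABA-B receptor genes *Gabbr1* and *Gabbr2*, which work as a pair, had means of 146 TPM and 119 TPM.

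Among glutamate receptors, *Gria2*, the AMPA subunit that blocks calcium entry, held 69.8 ± 4.14% (SD, n = 4) of the AMPA total with 729, 483, 433 and 469 TPM. *Gria1* had 79.8 to 92.3 TPM, *Gria4* 67.7 to 73.3 TPM and *Gria3* 64.5 to 71.9 TPM. *Gria2* was 5.42 to 7.90 times *Gria1* and did not overlap with it, while *Gria4* and *Gria3* did not differ beyond their spread. PV+ interneurons are known for AMPA receptors with little GluA2 and much GluA4, unlike the order of these levels. The part of RNA from other cells in this order was not tested. *Grin1*, the obligatory NMDA subunit, had 161, 149, 152 and 156 TPM. *Grin2a* had 102, 91.9, 44.1 and 42.2 TPM, with replicates 1 and 2 above 3 and 4, and *Grin2b* 39.2, 59.4, 43.6 and 22.6 TPM. *Grin2d*, a subunit of interneurons, had 6.51 to 9.86 TPM. The metabotropic receptor genes ranged from 8.29 TPM (*Grm4*) to 43.0 TPM (*Grm7*) on average. Of 12 acetylcholine receptor genes, *Chrm3* led with 34.2, 64.4, 58.7 and 59.3 TPM, and *Chrm1* had 44.3, 39.4, 43.8 and 42.5 TPM. *Chrm3* encodes the receptor type on which hM3Dq is based, and *Rpl10a*, whose tagged form the virus carries, had 301, 755, 882 and 911 TPM. Reads of virus-carried and own copies cannot be told apart in gene totals, and both genes were lowest in replicate 1.

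The perineuronal net was represented unevenly, with 13 of 16 genes above a mean of 1 TPM. *Hapln4*, a link protein of the net at inhibitory synapses, had 90.5, 172, 181 and 167 TPM, and the proteoglycan gene *Bcan* had 109.8, 98.1, 103 and 106 TPM. *Acan*, the proteoglycan that defines the nets of PV+ cells, had 0.735, 0.770, 1.36 and 1.54 TPM, with 101 to 247 reads. *Hapln4* was 108 to 224 times and *Bcan* 68.6 to 149 times the level of *Acan*. The link protein *Hapln1* had 7.03 to 14.4 TPM, *Ncan* 20.1 to 26.6 TPM and *Vcan* 0.841 to 1.37 TPM. *Tnr* (tenascin-R), which crosslinks the net, had 30.9, 22.7, 10.3 and 11.6 TPM. Like *Grin2a*, *Tnr* was higher in replicates 1 and 2 than in 3 and 4, whereas *Nptx2*, which gathers AMPA receptors on PV+ cells, had the opposite order with 6.52, 5.82, 13.5 and 12.5 TPM. *Otx2*, a protein that PV+ cells take up from outside, had no read in any sample.

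All 20 neuropeptide and granin genes had a mean above 1 TPM. The processing inhibitor *Pcsk1n* led with 236 to 479 TPM, the processing chaperone *Scg5* had 223 to 376 TPM, and the granins *Chgb*, *Chga* and *Scg2* had means of 172 TPM, 113 TPM and 87.6 TPM. *Vgf*, a granin-like secreted precursor, had 34.2 TPM in replicate 1 and up to 57.2 TPM in the others. *Cck* and *Sst*, peptides of other interneurons, had 179, 216, 174 and 175 TPM and 104, 183, 128 and 139 TPM. The summed level of the list was lowest in replicate 1, at 1316 TPM against 1902 to 2034 TPM.

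Genes of energy supply were among the highest of all. The list of nuclear respiratory chain genes, 24 genes of the chain and ATP synthase and the coactivator gene *Ppargc1a*, had a median of 711 TPM, at percentile 99.8 of all genes, and summed to 11637, 22302, 22651 and 20901 TPM. *Atp5b* had 1515, 2348, 2384 and 2223 TPM, and *Ndufa4*, a subunit of cytochrome oxidase, 696, 1751, 1792 and 1569.7 TPM. The 17 glycolysis genes summed to 9656, 15097, 14815 and 14565 TPM, and 16 of them were above 100 TPM. The exception was *Hk2*, the inducible hexokinase, with 0.347 to 0.628 TPM, whereas *Hk1*, the form of neurons, had 438 to 523 TPM. *Ldhb* was 3.60 to 9.71 times *Ldha*, the form that favours lactate production. The 13 mitochondrially encoded proteins had a median of 127 TPM. *Ppargc1a*, whose product drives mitochondrial genes and is high in PV+ cells, had 56.6, 93.0, 102 and 100.2 TPM. Of the sodium pump, the beta subunit *Atp1b1* had 561, 1116, 1142 and 1132 TPM, and the 9 pump genes summed to 1508, 2588, 2722 and 2705 TPM. Neurofilaments were led by *Nefl* with 768 to 989 TPM, and *Nefh* had 302 to 352 TPM.

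Of 20 transcription factors of interneurons, 19 had a mean above 1 TPM. *Mef2c*, needed for the maturation of PV+ cells, led with 749.6, 754, 639.5 and 658 TPM. *Lhx6*, which specifies cells of the medial ganglionic eminence, had 25.9, 53.5, 59.2 and 54.4 TPM, *Dlx1* 58.6, 104, 103 and 99.3 TPM and *Satb1* 92.2, 99.0, 100.5 and 111 TPM. *Nkx2-1*, which is shut off in cortical interneurons after birth, had 0.0538 to 0.599 TPM, from 3 to 28 reads. *Nr2f2*, a factor of interneurons from the caudal eminence, had 2.78 to 3.97 TPM. Of 25 immediate early genes, 21 had a mean above 1 TPM, led by *Egr1* with 243, 204, 141 and 147 TPM. *Egr1* was above the next gene of the list in 2 of 4 samples only, and their ranges overlapped. *Fos* had 18.1, 20.6, 13.8 and 15.7 TPM, *Npas4* 5.37, 8.93, 6.03 and 8.76 TPM and *Fosb* 0.631, 0.674, 0.728 and 0.881 TPM. In the vehicle samples *Egr1* was 9.40 to 13.4 times *Fos*. The neuronal connexin gene *Gjd2*, which couples PV+ cells electrically, had 1.52, 3.28, 5.44 and 5.47 TPM, below the astrocyte connexin gene *Gja1* with 43.5 to 51.5 TPM.

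Markers of other cells were present in all 4 samples. The 15 pyramidal cell markers all had a mean above 1 TPM and summed to 1349, 1179, 1082 and 1188 TPM, led by *Slc17a7* and by *Camk2a* with 231 to 253 TPM. *Neurod6*, the gene that carries Cre in these mice, had 42.5, 32.4, 25.9 and 28.5 TPM. Of the markers of other interneuron classes 15 of 18 were above 1 TPM, led by *Lamp5* with 316, 246, 258 and 224 TPM, a gene that pyramidal cells also express. *Vip* had 25.2, 21.8, 22.6 and 20.9 TPM, and *Pvalb* was 11.9 to 46.4 times *Vip* and 2.89 to 8.19 times *Sst*. Astrocyte markers summed to 740.4, 724, 593 and 622 TPM, oligodendrocyte lineage markers to 1036, 809.6, 880.3 and 870.5 TPM and microglia markers to 153, 125.3, 117 and 113 TPM. *Aldoc*, the leading astrocyte marker, had 250.2 to 329 TPM. Vascular markers summed to 101, 102, 152 and 136 TPM, with *Acta2* of smooth muscle at 4.25, 12.6, 26.8 and 26.5 TPM. Markers of striatal projection neurons summed to 435, 289, 316 and 351 TPM, led by *Ppp1r1b*, which cortical cells express too, with *Drd1* at 14.96 to 18.9 TPM. None of these lists had a defining member at 0 in all samples. Genes of the Y chromosome were detected in each sample, with *Eif2s3y* at 89.5, 33.6, 86.6 and 83.9 TPM, and *Xist*, expressed by female cells, had 1.96, 3.56, 0.434 and 1.16 TPM. The lowest *Eif2s3y* and the highest *Xist* value came from replicate 2, and the number of males and females in each pool is not given in the sources used here.

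Replicates differed most in replicate 1. Over the 9766 genes with a mean above 10 TPM, Pearson's r of log2(TPM + 1) across genes was 0.941 to 0.951 between replicate 1 and each other replicate and 0.976 to 0.983 among the other 3. Genes are not independent replicates, and these correlations are given as a description. Replicate 1 lay more than 2-fold from the mean of the other 3 in 229 genes, 212 lower and 17 higher, whereas replicates 2, 3 and 4 did so in 21, 26 and 23 genes. The shares of genes in which a single sample was the lowest or the highest, 38.9% and 39.1% for replicate 1, were 15.1 to 29.1% for the other replicates. The median deviation over all these genes was 0.01 on the log2 scale, a value that depends on the scaling of TPM to the same sum. Rescaling without *Trp53bp1* and *Bcar1* moved the median gene by 0.34 in replicate 1 and by 0.18 to 0.23 in the others.

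Several of the gene lists were low in replicate 1 and others were high. All 12 PV+ interneuron markers were lowest there, with a median log2 ratio to the mean of the others of -1.15, as were 13 of 14 GABAergic neuron genes (median -0.74) and all 25 genes of the respiratory chain list, *Ppargc1a* included (median -0.93). Of the Kv3 channels 3 of 4 were lowest, of the glycolysis enzymes 11 of 16 and of the neuropeptides and granins 15 of 20. Of 80 cytosolic ribosomal protein genes above 10 TPM, 77 were lowest in replicate 1 (median -0.75). In contrast, 10 of 15 pyramidal cell markers (median 0.28), 8 of 10 microglia markers (median 0.40), 8 of 11 astrocyte markers (median 0.20) and 7 of 11 oligodendrocyte markers (median 0.19) were highest there. Vascular markers went the other way, with 0 of 9 highest in replicate 1 and 7 of 9 below the mean of the others (median -0.22), and of 15 markers of other interneuron classes 6 were lowest and 6 highest (median 0.15). These counts stand beside the 38.9% and 39.1% above, which cover the 9766 genes with a mean above 10 TPM. Members of the lists were counted where their mean was above 1 TPM, so the thresholds differ. The lists were chosen with earlier results known. Among single genes *Slc32a1* was 5.31 times lower in replicate 1 than the mean of the others, *Cox6a2* 3.63 times, *Pvalb* 3.31 times and *Syt2* 2.68 times. Of the 10 genes furthest below, 7 were processed pseudogenes, and all 10 had at least 92.9% of their 31-nucleotide stretches in other genes and 0 to 7.60 TPM in replicate 1, and the 10 furthest above were led by *Gm10136* and *9630010A21Rik*, with *Cwc22*, a splicing factor, the most abundant at 493, 213, 246 and 218 TPM.

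Other measures moved with this sample. Its total of 44087600 reads was close to that of replicate 2 with 44064161. *Malat1* took 3.15% of TPM in replicate 1 and 1.61 to 1.91% in the others, and the ribosomal RNA gene *Rn18s-rs5* had 418, 1124, 1513 and 1373 TPM. Genes of short transcripts were lower in it, with a median log2 ratio of -0.21 over the 2442 genes of shortest effective length and 0.08 over the 2442 longest. The 154 and 14 genes more than 2-fold lower in these groups followed the same order. Of the PV+ interneuron markers, all lowest in replicate 1, *Kcnc2*, *Syt2*, *Erbb4*, *Ank1* and *Btbd11* belong to the longest group. *Pvalb*, *Tac1* and *Cox6a2* belong to the shortest group, and *Pthlh*, *Cplx1*, *Kcnc1* and *Kcns3* lie between. The pyramidal cell markers above 10 TPM all lie outside the shortest group, so that length and cell type are mixed in these lists. The part of cell makeup, RNA length and nuclear RNA in the deviation of replicate 1 was not tested.

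**Figure D4:**
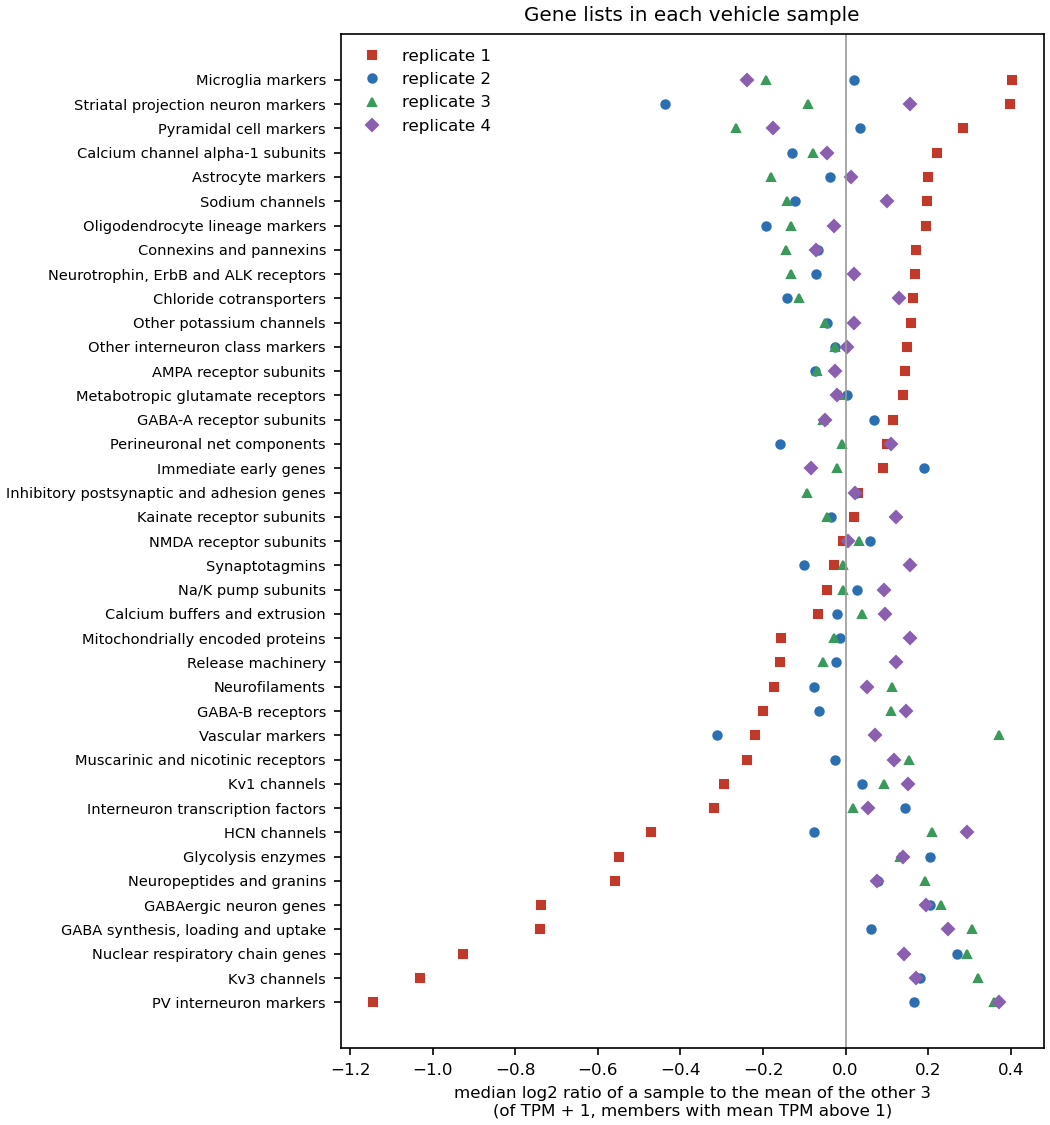
Median log2 ratio of each vehicle sample to the mean of the other 3, over the members of each of 39 gene lists with a mean TPM above 1 (sex-linked genes left out), one symbol per replicate. Replicate 1 reached from -1.15 (PV+ interneuron markers) to 0.40 (microglia markers).

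The spread of single genes was measured by the coefficient of variation (CV), the SD over the mean of the 4 TPM values. Over genes with a mean above 1 TPM its median was 0.153, and without replicate 1 it was 0.0929. By level, the median CV was 0.219 for genes between 1 and 10 TPM, 0.124 between 10 and 100, 0.131 between 100 and 1000 and 0.222 above 1000. Without replicate 1 these medians were 0.170, 0.0753, 0.0497 and 0.0548. Without replicate 1 the genes above 1000 TPM thus had a smaller median CV than those between 10 and 100 TPM, and still a slightly larger one than those between 100 and 1000. The median CV of the PV+ interneuron markers was 0.342 with all samples and 0.0813 without replicate 1, that of the respiratory chain list 0.271 and 0.0471, and that of the glycolysis enzymes 0.175 and 0.0363. The median CV of the 4 AMPA receptor subunits was 0.0564, whereas *Gria2*, which holds most of their total, had a CV of 0.257 with all samples and 0.0557 without replicate 1.

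**Figure D5:**
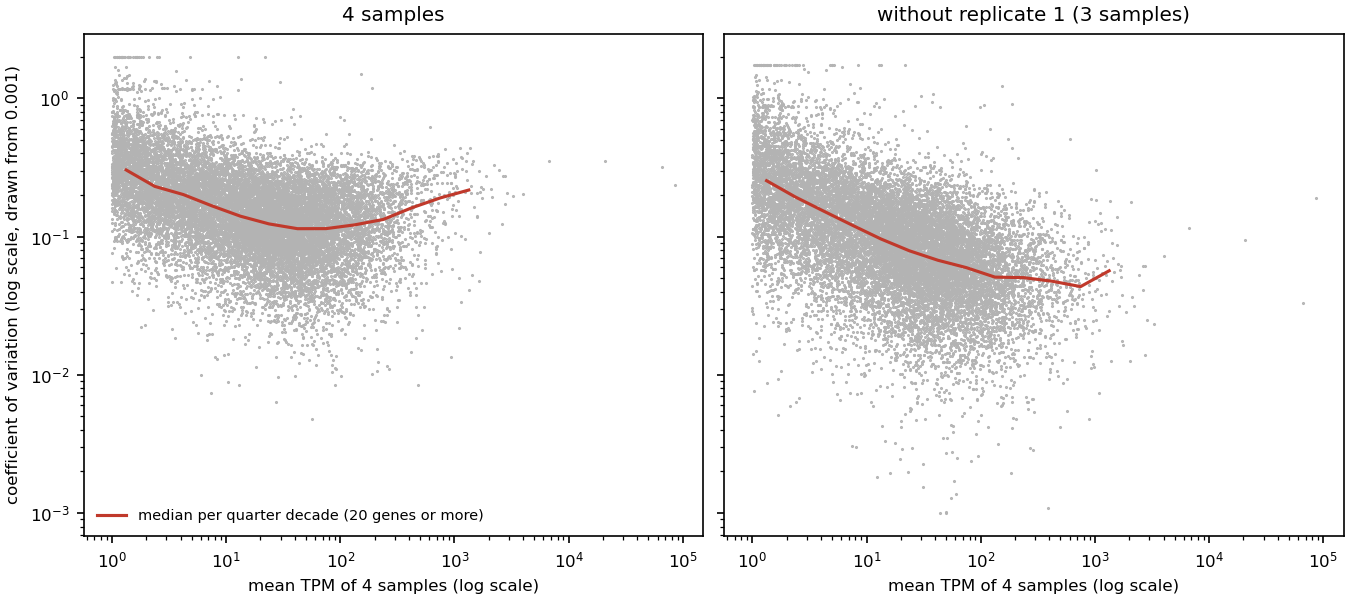
Coefficient of variation (log scale) against mean TPM (log scale) for genes above 1 TPM, with all 4 samples on the left and without replicate 1 on the right, each point a gene and the line the median per bin of level. With all samples the median CV above 1000 TPM was 0.222, higher than between 10 and 100 TPM, and without replicate 1 it was 0.0548, lower than there.

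The steadiest genes above 10 TPM included *Cyth1*, *Tmem115*, *Tmem87a*, *Sub1*, *Ssx2ip*, *Stox2*, *Otub2*, *Fam98a* and *Ddx39b*, with CVs of 0.00481 to 0.00987. *Sub1*, a transcription coactivator, had 477, 485, 479 and 475 TPM. None of these 9 genes belongs to the lists of cell type markers. Those lists hold only a small part of the 9766 genes above 10 TPM, so their absence is not read as a result. The 10 least steady genes were *Rpl35a-ps3*, *Gm10163*, *Gm12896*, *Gm21860*, *Gm8210*, *Snurf*, *Gm12191*, *Gm21748*, *Rpl17-ps5* and *Hist2h2aa2*, with CVs of 0.750 to 2.00. Of these, 6 are processed pseudogenes, and in all 10 at least 99.0% of the 31-nucleotide stretches occur in other genes. *Snurf* had 0, 447, 305 and 0 TPM and shares all of its stretches with other genes, while *Snrpn*, which overlaps it, had 1167, 1969, 1832 and 1788 TPM. The assignment of reads between such genes is uncertain, and 9 of the 10 were at 0 TPM in at least 1 sample.

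Within the 40 lists, 457 pairs of genes were neighbours in the order of mean level. In 239 pairs the same gene was the higher in all 4 samples, and in 161 of them the ranges of both genes were also apart. Without replicate 1 the ranges were apart in 249 pairs. The order within families thus held for a part of the neighbours only, whereas the gene that led each of 30 functional families was the same after leaving out any replicate. Replicates 1 and 2 were both above 3 and 4 in 2402 genes (24.6% of 9766) and both below them in 1572 (16.1%). Some genes fall in this order by chance, and the other ways to pair the 4 samples were not counted. These shares are therefore not read as a division of the samples.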

How the data were processed

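RNA of ribosomes pulled down from PV+ interneurons of S1 was sequenced in 4 vehicle samples, grouped by the labels. The submitters' notes name Trim Galore, STAR, Salmon and the build GRCm38, without versions. The authors deposited estimated counts per gene without normalization and TPM, scaled by transcript length and library, for the same genes. TPM were used as deposited, and estimated counts were rounded for scaling factors. There was 1 group, so no test between groups was made, and Dixon's ratio was used to mark single samples. Levels were averaged over samples, the spread was SD over mean, and genes with a mean TPM above 10 were used for deviations of single samples. A neighbour in a family was said to differ beyond the spread where it was higher in all 4 samples without overlap of ranges. Positions, coding sequences and shared 31-nucleotide stretches came from GENCODE mouse release 21 (45143 of 45706 identifiers matched), start windows from RefSeq on GRCm38.p6.

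Named genes were the 5 markers of the group, the 20 highest outside the mitochondrial genome, leading and near-absent members of 40 lists, the 10 with lowest and highest CV, and the 10 deviating most in either direction in replicate 1. The samples and lists were chosen with earlier results of these data known. Genes with the HA residues, *Tubgcp4*, *Rpl10a*, *Rn18s-rs5* and *Snrpn*, and list members between the leading and the near-absent ones, were named after their values were seen. Alternatives changed the unit, the scaling (TMM of edgeR 4.0.16, size factors of DESeq2 1.42.0, both in R 4.3.3, over 19062 genes with at least 10 counts in 1 or more samples), the pseudocount (1 or 0.1) and the filter, or left out each replicate. Rescaling without *Trp53bp1* and *Bcar1* was added after seeing the data. The calculation of spread and deviation was tested on simulated data. Plots were drawn with matplotlib 3.10.9 in Python 3.11.15. Some genes are not reported here. Antisense and overlapping genes cannot be separated because the kit does not mark strand.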

Additional observations from a re-analysis of the deposited data

Results flagged for a closer look

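For 67 measures, the distance of the most extreme of the 4 vehicle samples from the next one was set against the whole range, and this ratio passed Dixon's critical value for 4 samples in 23. Chance flags about 1 in 20 such measures, and the measures are not independent of each other. Replicate 1 was the sample in 22 of the 23. Over the 9766 genes with a mean TPM above 10, 1090 (11.2%) passed, and replicate 1 was the sample in 85.2% of them.

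Replicate 1 was the lowest sample in *Pvalb* (ratio 0.857), *Gad1* (0.845), *Snap25* (0.884), *Gapdh* (0.887), *Ndrg4* (0.917), *Ppia* (0.856), *Cplx1* (0.894), *Mdh1* (0.891), *Hspa8* (0.921) and *Aldoa* (0.918). It was the highest in *Bcar1* (0.927) and *Cpe* (0.896). In summed TPM of a list it was the lowest for PV+ interneuron markers (0.923), GABAergic neuron genes (0.852), Kv3 channels (0.848), Kv1 channels (0.885), release machinery (0.902), muscarinic and nicotinic receptors (0.936), Na/K pump subunits (0.890), glycolysis enzymes (0.902) and nuclear respiratory chain genes (0.841). It was the highest for AMPA receptor subunits (0.82938), where *Gria2* had 729 TPM against 433 to 483 TPM. Replicate 2 was the lowest in the summed sex-linked genes (0.836), at 70.2 TPM against 145 to 159.9 TPM. *Slc17a7* did not pass.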

How the results depend on the processing

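Of 95 values under alternatives, 83 moved by less than the spread between replicates (counts by less than 1.5 times), 12 moved by more and 0 reversed. Leaving out a replicate cannot move a mean level or the mean marker index by that spread, so those entries were fixed in advance. A reversal needs a change of sign, which only the marker index could show. The tally is therefore no measure of robustness. The share of TPM on the 100 highest genes, 30.3%, was 34.0% of counts and 18.0% without *Trp53bp1* and *Bcar1*, and 28.9 to 31.2% with each replicate left out. The median CV, 0.153, was 0.201 with genes down to 0.1 TPM and 0.0929 to 0.159 with each replicate left out, the lowest value without replicate 1. The other 8 that moved were ranks of the 5 markers among genes above 1 TPM, where *Slc32a1* fell from percentile 84.0 to 53.3, the percentiles of *Pvalb* and *Slc17a7* by CPM, 99.3 and 99.7, and the level of *Slc17a7* without *Trp53bp1* and *Bcar1*, 561 TPM. The number of genes above 1 TPM was 14533 to 16110 over all alternatives. The marker index was 0.742 from TMM-normalized CPM and 0.909 to 1.46 with each replicate left out. Counts that are not divided by length changed the leading gene in 5 of 30 families, among them *Gabbr2* for *Gabbr1*, *Grm5* for *Grm7*, *Chrm1* for *Chrm3* and *mt-Co1* for *mt-Co3*. TMM moved the median of all genes above 10 TPM by -0.08 to 0.03 per sample and the exclusion of *Trp53bp1* and *Bcar1* by 0.18 to 0.34 on the log2 scale, upward in all 4 samples and most in replicate 1. No paired analysis was possible because 1 group was used and nothing was compared between groups.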
